A study of Mus musculus with 2 samples.

Results

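The MHC class II pathway is described here by 7 genes, *H2-Aa*, *H2-Ab1*, *H2-Eb1*, *H2-DMa*, *H2-DMb1*, *Cd74* and *Ciita*, taken from 31053 genes as the rows that carry these symbols in both count matrices. All 7 were found in both, each as 1 row, and the rule, by symbol, used no measured value, although the genes were picked with earlier results of these data known. They were measured in 2 libraries of single-cell RNA from mouse lung, made with 10x Genomics droplets, 1 from *Pclaf* WT and 1 from *Pclaf* KO animals. *Pclaf* encodes a PCNA-binding factor of dividing cells. Both groups were 8 to 10 weeks old and both received bleomycin, an agent that injures the lung, at 1.35 U/kg by the description deposited with the data, 1 week before the lungs were digested. The *Pclaf* KO is a germline deletion, so every cell type carries it, and no library from an uninjured lung was analysed here. The cells were stained for CD31, CD45 and EpCAM and sorted as epithelial cells (CD31-, CD45-, EpCAM+), and the labels call both samples epithelial cells. How many mice went into a library is not given in the sources used here.

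MHC class II molecules are pairs of an alpha and a beta chain that carry peptides from endocytosed proteins to the cell surface, where CD4 T cells read them. The invariant chain, encoded by *Cd74*, binds the new pairs, blocks their groove and guides them to endosomes. There the H2-DM heterodimer (*H2-DMa* and *H2-DMb1*) exchanges the remnant of the invariant chain for peptide. CIITA, encoded by *Ciita*, is the coactivator that switches this whole set of genes on. Dendritic cells, B cells and macrophages use the pathway as professional antigen-presenting cells, and type 2 alveolar (AT2) cells, the surfactant-producing cells of the alveolus, are known to carry it as well.

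CIITA does not bind DNA itself. It docks on RFX, CREB and NF-Y proteins that sit on the X and Y boxes just upstream of class II genes. RefSeq promoter windows on GRCm38.p6, from 250 bases before to 50 bases after a gene's start, were given for 4 of the 7 genes (*H2-Aa*, *H2-Eb1*, *H2-DMa* and *H2-DMb1*), and for *H2-DMb2*, *H2-Oa* and *H2-Ob*, other class II genes. The sequences below are shown because they hold the element these genes share, and because *H2-Aa* and *H2-Eb1* were high or low together across the cell classes. The capitals TGATTGG mark a Y box with its core ATTGG, and the capitals CCTAG in *H2-Ob* mark a match to the X box core CCTNG.
H2-Aa, chr17:34287862-34287916, minus strand: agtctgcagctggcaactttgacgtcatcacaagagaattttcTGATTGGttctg
H2-Eb1, chr17:34305763-34305817, plus strand: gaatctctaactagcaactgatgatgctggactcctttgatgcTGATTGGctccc
H2-DMb2, chr17:34145114-34145168, plus strand: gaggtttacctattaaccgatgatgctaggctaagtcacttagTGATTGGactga
H2-Ob, chr17:34238803-34238857, plus strand: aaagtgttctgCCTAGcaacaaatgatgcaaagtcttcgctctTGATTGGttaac

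The motif TGATTGG, which was chosen after the windows had been seen, began 50 bases before the start of *H2-Aa*, 61 before *H2-Eb1*, 63 before *H2-DMb1*, 92 before *H2-DMb2*, 45 before *H2-Oa* and 59 before *H2-Ob*. Its letters were on the gene's strand in 4.01% of all 32851 windows and on either strand in 7.82%. Neither of the 2 windows of *H2-DMa* held TGATTGG, and 1 of them held the core ATTGG alone, which 22.1% of all windows held on the gene's strand. An X core CCTNG followed by a Y core ATTGG that began 25 to 45 bases after it was in the windows of *H2-DMb1*, *H2-Oa* and *H2-Ob*, and in 2.70% of all windows on the gene's strand. A match is a description of the letters, not of binding. By GENCODE M21 on GRCm38, *H2-Aa* (17:34282744-34287823, minus strand), *H2-Ab1* (17:34257689-34269419), *H2-Eb1* (17:34305867-34316674), *H2-DMa* (17:34119541-34139101) and *H2-DMb1* (17:34153072-34160230) lie together, whereas *Ciita* (16:10480059-10528418) is on chromosome 16.

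The libraries stood apart in makeup and depth. The *Pclaf* WT library held 98171818 unique molecular identifiers (UMIs, each counting 1 captured transcript) and the *Pclaf* KO library 111267567, and after filters 30187 WT and 15637 KO cells remained, with medians of 2127 and 5957 UMIs per cell. Although the sort was meant to leave epithelial cells, clusters led by immune genes held 48.9% of WT and 4.07% of KO cells, endothelial clusters 30.5% and 3.04%, mesenchymal clusters 13.97% and 20.7%, and epithelial clusters 6.64% and 72.2%. Genotype, library and this makeup cannot be told apart. *Pclaf* was at 39.3 CPM (its UMIs per 1000000 UMIs of the library) in the WT and 5.19 in the KO library. In cycling epithelial-like cells, where it was expressed, the WT level was 144 CPM (95% interval 96.9 to 205) and the KO level 76.3 (67.7 to 85.7), so its UMIs were lower but not absent in the library labelled *Pclaf* KO. *Xist*, the RNA of the inactive X chromosome of female cells, was at 254 and 498 CPM, whereas the methods name male mice. The libraries shared 163 cell barcodes, and leaving these out moved none of the ratios for which this was run by more than its counting error.

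Cells were grouped by clustering that left out the 7 genes and all other genes of the pathway, and clusters were named by marker genes, with "-like" added. Levels are UMIs summed over the cells of a class in 1 library, in CPM, with exact 95% Poisson intervals. Transcripts were counted once at their 3′ end, so levels of different genes were compared without division by length. With 1 library per genotype there was no replicate, no test was possible, and every interval covers counting error only. Differences between the libraries beyond these intervals therefore describe 2 libraries, not 2 genotypes.

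All 7 genes were highest in antigen-presenting cells, and AT2-like cells led the named epithelial classes for the 3 chains, *Cd74* and *Ciita*. *H2-DMb1* was higher in cycling epithelial-like cells (90.9 CPM in WT and 99.0 in KO) than in AT2-like cells (82.9 and 83.2), beyond counting error in KO only. In WT, the classical chains *H2-Aa*, *H2-Ab1* and *H2-Eb1* summed to 19440 CPM in 538 dendritic-like cells and 16880 in 930 interstitial macrophage-like cells, which are the C1q-expressing macrophages of the tissue between the alveoli. They were at 5513 CPM in 2220 B-like cells and 4645 in 661 Spp1 macrophage-like cells, the *Spp1*- and *Arg1*-marked macrophages. Intervals of these classes did not overlap in WT. In the KO library, the chains reached 21270 CPM in 27 dendritic-like cells, 18530 in 27 interstitial macrophage-like cells, 7609 in 62 B-like cells and 2585 in 22 Spp1 macrophage-like cells, which is the same order.

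**Figure D1:**
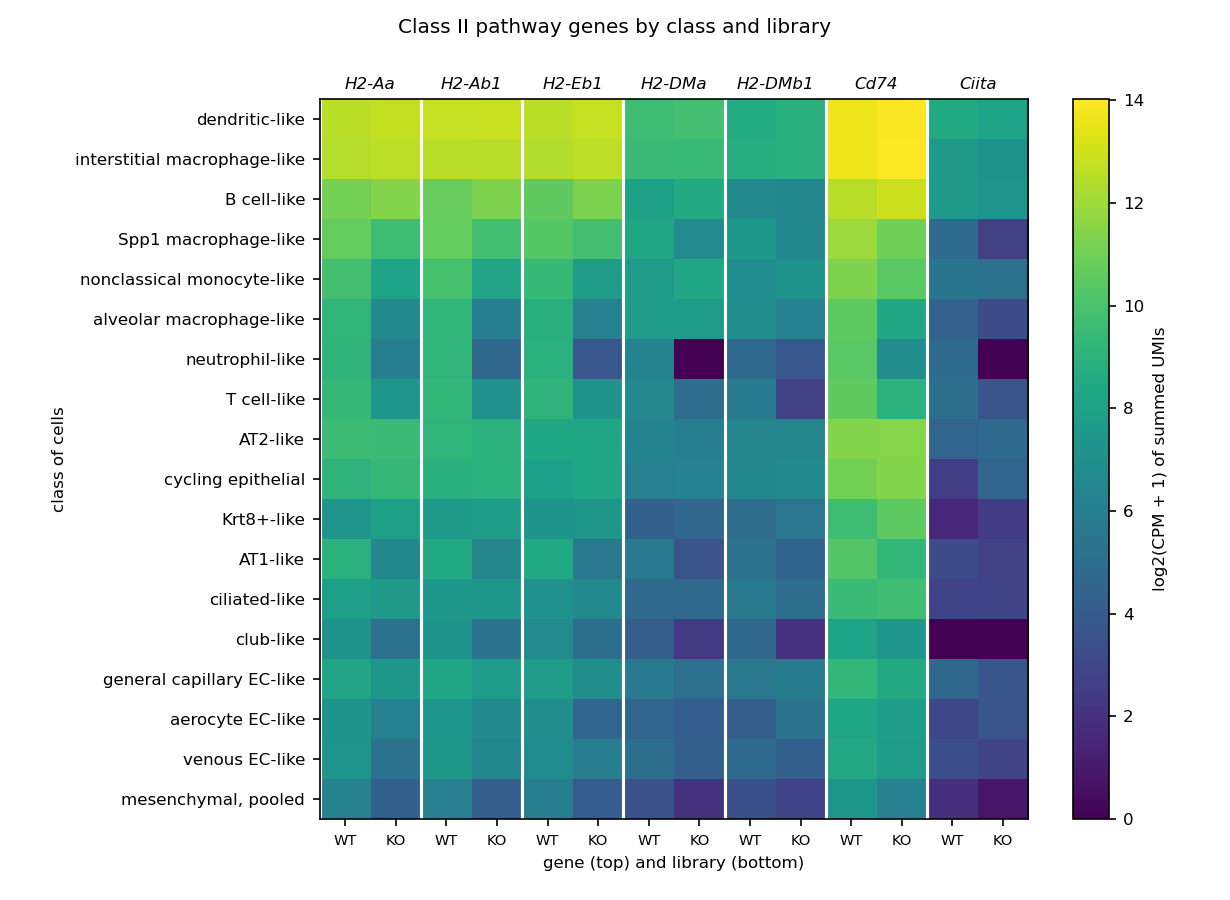
Levels of the 7 class II genes in 18 cell classes of the *Pclaf* WT and *Pclaf* KO libraries, as log2(CPM + 1), from UMIs summed over the cells of a class. The rows of dendritic-like and interstitial macrophage-like cells are the highest in both libraries (*Cd74* at 13040 and 12960 CPM in WT). For *Cd74*, AT2-like cells lie lower (2694 CPM in WT, 2852 in KO), and mesenchymal-like cells are the lowest (169 and 68.4 CPM). For some other genes a class lies below mesenchymal-like cells, such as club-like cells for *H2-DMb1* in KO (3.055 against 6.105 CPM).

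The chains and *Cd74* of AT2-like cells lay below those of dendritic-like, interstitial macrophage-like and B-like cells. They lay above those of capillary-like and mesenchymal-like cells. Not all antigen-presenting classes were higher: alveolar macrophage-like cells held *Cd74* at 1519 CPM in WT and 340 in KO. The 508 WT cells held *H2-Aa* at 786 CPM, *H2-Ab1* at 573, *H2-Eb1* at 336 and *Cd74* at 2694, and the 5435 KO cells held them at 748, 501, 319 and 2852. The level of *Cd74* in AT2-like cells was thus near that of nonclassical monocyte-like cells in WT (2579 CPM, intervals of 2630 to 2760 and 2518 to 2640, which overlapped) and 15.9 times that of mesenchymal-like cells in WT and 41.7 times in KO. All 7 genes were past a 2-fold excess over mesenchymal-like cells in both libraries, where 10.7% of all genes in WT and 13.8% in KO passed the same limit. The 10 marker genes of AT2 cells were all at least 2 times higher in this class than outside it, which is no separate support, since they named the class. *Ptprc*, the pan-immune gene for CD45, was at 7.28 CPM in AT2-like cells of WT and 0.377 of KO, against 624 and 518 in dendritic-like cells.

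Between the libraries, the pathway of AT2-like cells differed little. The log2 ratio, KO over WT, of the 3 summed chains was -0.11 (95% interval -0.16 to -0.07), of *Cd74* 0.08 (0.05 to 0.12) and of all 7 genes together 0.01 (-0.02 to 0.03). None of the 7 passed a 2-fold limit, which 0.556% of 13487 genes passed as higher and 4.47% as lower in KO. The median of the 7 ratios was -0.07, beside -0.14 over all genes tested. The largest single differences were -0.27 for *H2-DMa* (-0.48 to -0.05) and 0.23 for *Ciita*, whose interval of -0.16 to 0.64 included 0. Scaling by TMM factors turned the ratio of the chains to 0.08, so no direction is given for them.

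AT2-like cells of the libraries came from different clusters, and values within clusters were also close. Cluster 10 of the epithelial cells held 249 of the 508 WT cells but 227 of the 5435 KO cells, and cluster 0 held 97 and 1915. In cluster 0, *Cd74* was at 2846 CPM in WT and 3144 in KO, and *H2-Aa* at 776 and 789. In cluster 10, *Cd74* was at 2796 and 2661 CPM, and *H2-Aa* at 835 and 738. Across the 5 AT2-like clusters, *Cd74* ranged from 2092 to 2995 CPM in WT and from 2360 to 3261 in KO, so clusters of the same library differed more than the libraries did. The lowest values of *Cd74* in both libraries were in cluster 1, led by *Acoxl* and *Ank3*. In the 156 WT and 2048 KO AT2-like cells with no UMI of 13 immune genes, *Cd74* was still at 2513 and 2946 CPM and *H2-Aa* at 764 and 776.

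Nearly every AT2-like cell carried *Cd74*. After each cell was thinned to 1000 UMIs, 87.7% of WT (84.5 to 90.5, exact binomial interval, n = 488) and 86.9% of KO cells (85.9 to 87.8, n = 5423) had a UMI of it. Unthinned, at median depths of 4751 and 7004 UMIs, the shares were 97.6% and 98.3%. In mesenchymal-like cells, taken to lack the pathway, 12.3% of WT and 4.56% of KO cells had a UMI of *Cd74* at 1000 UMIs (32.7% and 17.7% unthinned, at median depths of 4137 and 5204), and shares are read against this background. AT2-like cells were also even: a median cell held 4 UMIs of the 7 genes in 1000 in both libraries, the 10th and 90th percentiles were 1 and 9 in both, and the highest cell held 20 in WT and 24 in KO. The shares of WT dendritic-like cells (97.6%) and of B-like cells (98.7% and 100%) were higher, whereas that of KO dendritic-like cells, 96.3% in 27 cells, had an interval (81.03 to 99.9) that included the AT2 value.

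**Figure D2:**
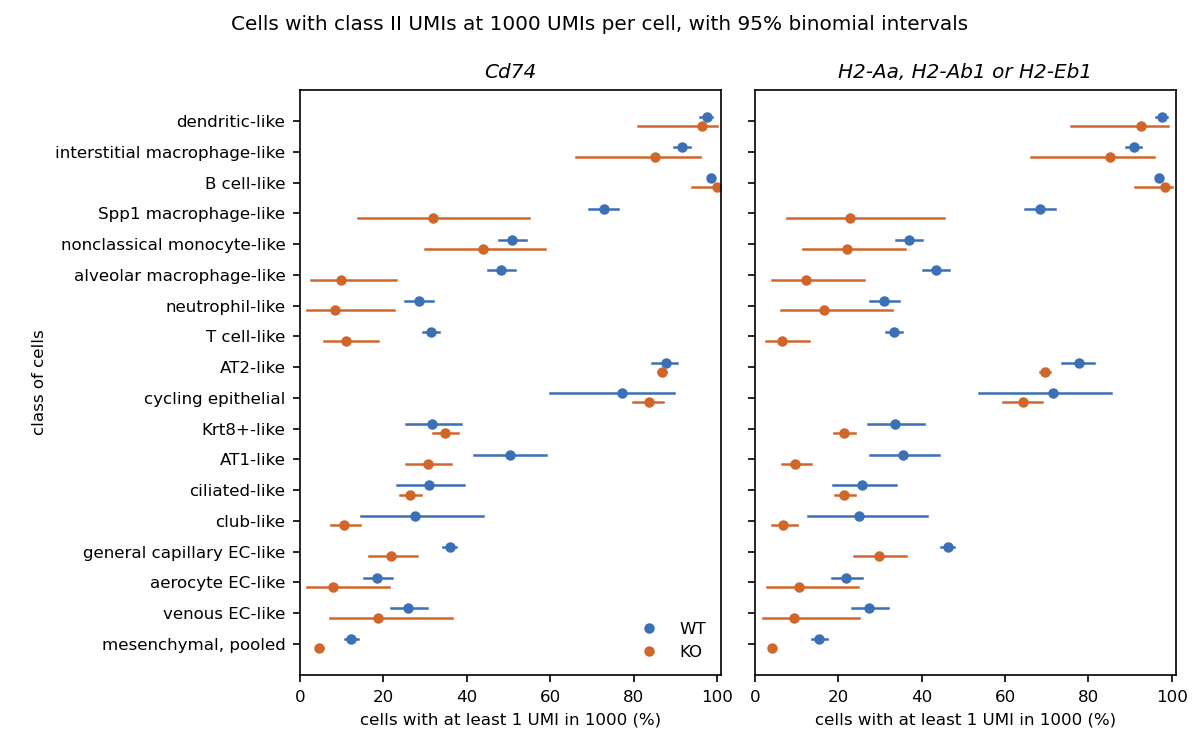
Percent of cells with at least 1 UMI of *Cd74* (left) and of any of *H2-Aa*, *H2-Ab1* and *H2-Eb1* (right) after thinning to 1000 UMIs, in 18 classes of the WT and KO libraries, with exact 95% binomial intervals. AT2-like cells sit at 87.7% and 86.9% for *Cd74*, nearer to dendritic-like and B-like cells than to Krt8+-like cells, which sit at 31.7% and 34.9%.

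Cycling epithelial-like cells, the dividing alveolar cells, held the pathway at nearly the AT2 level. *Cd74* was at 2111 CPM in 37 WT cells and 2723 in 414 KO cells (log2 ratio 0.37, 0.23 to 0.51), and the 3 chains summed to 1292 and 1434 CPM (0.15, -0.03 to 0.33). The intervals of *Cd74* in cycling epithelial-like cells (1918 to 2317 CPM in WT, 2670 to 2776 in KO) lay below those of AT2-like cells (2630 to 2760 and 2835 to 2868). None of the 7 genes was past 2-fold between the libraries, where 1.03% of genes were higher and 2.78% lower in KO.

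Krt8+-like cells, the transitional state between AT2 and type 1 alveolar (AT1) cells, held far less of every gene. In 246 WT cells, *H2-Aa* was at 158 CPM, *H2-Ab1* at 189, *H2-Eb1* at 153 and *Cd74* at 801, and in 1204 KO cells they were at 246, 227, 171 and 1469. *Cd74* was higher in KO, with a log2 ratio of 0.88 (0.77 to 0.98), above the 0.64 of *H2-Aa* (0.41 to 0.88) and the 0.37 of the 3 chains together (0.23 to 0.50), whereas the intervals of *H2-Eb1*, *H2-DMa*, *H2-DMb1* and *Ciita* included 0. Past 2-fold were 0 of the 7, where 2.01% of genes were higher and 2.85% lower in KO, and the median of the 7 ratios was 0.52 beside -0.05 over all genes. The ratio of *Cd74* kept its direction under every alternative that was run but was 0.19 where barcodes with over 5000 UMIs were left out, 0.51 with 30 principal components and 0.58 with a resolution of 1.2. It was 0.78 in cells with no immune UMI (811 and 1392 CPM in 112 WT and 925 KO cells). The class was made of clusters 4 and 11, and the values of the chains differed in opposite directions in them. In cluster 4 they were at 453 CPM in 146 WT cells against 653 in 833 KO cells, and in cluster 11, whose median was 1087 UMIs in WT, at 712 in 100 and 549.9 in 371 cells. *Cd74* was higher in KO in both, at 750 and 1459 CPM in cluster 4 and 1036 and 1550 in cluster 11.

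The KO Krt8+-like cells were uneven. At 1000 UMIs, 31.7% of WT (25.3 to 38.6, n = 202) and 34.9% of KO cells (32.0 to 37.8, n = 1050) had a UMI of *Cd74*, and their intervals overlapped. The median cell held no UMI of the 7 genes in either library. The 90th percentile was 4 UMIs in WT and 5.1 in KO, but the highest cell held 11 in WT and 46 in KO, and the variance over the mean was 3.26 and 8.98, against 1.89 and 2.27 in AT2-like cells. The higher summed level in KO went with a few cells that held many UMIs. For the 3 chains, the share of cells with a UMI was 33.7% in WT and 21.3% in KO, opposite to their summed level, and their mean was 0.554 UMIs per thinned cell in WT and 0.512 in KO, so no direction is given for the chains in Krt8+-like cells. In the same cells *Cd74* and *H2-Aa* varied together, with Pearson's r across cells of 0.31 in WT and 0.61 in KO, where cells share their library and their thinned depth (in AT2-like cells, 0.19 and 0.27).

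**Figure D3:**
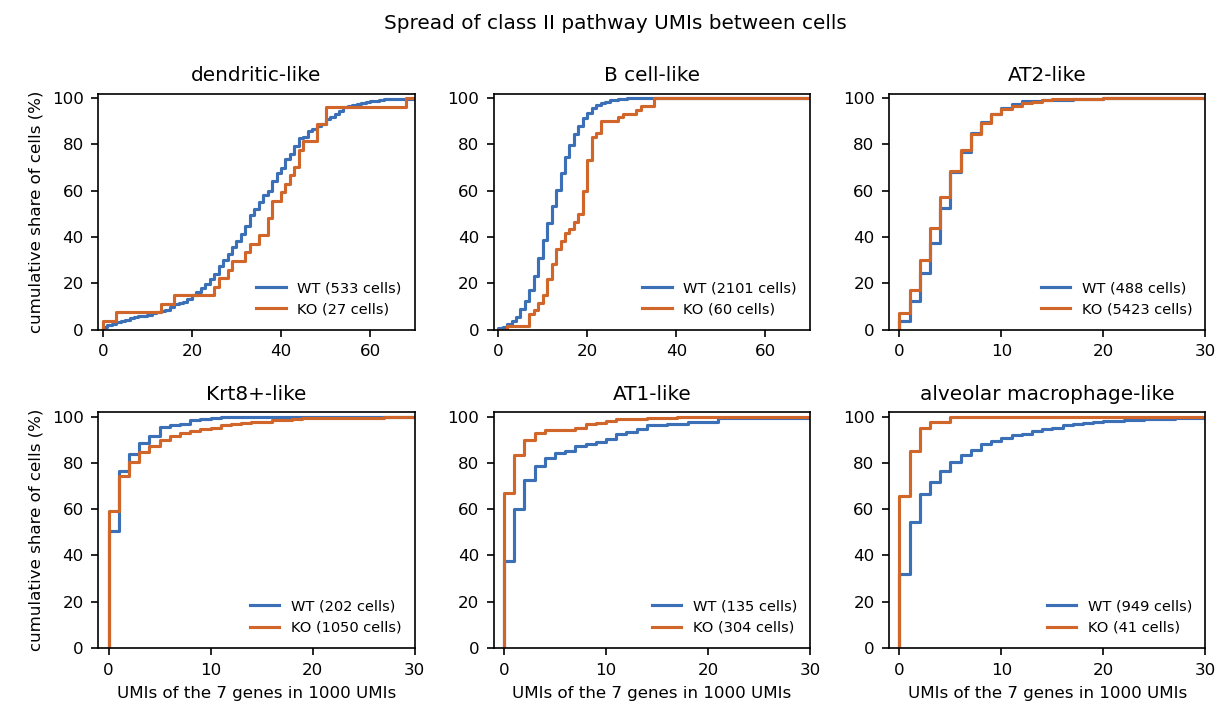
Cumulative percent of cells (vertical axis) by the UMIs of the 7 class II genes in a cell thinned to 1000 UMIs (horizontal axis), for 6 classes of the WT and KO libraries. The lines of AT2-like cells lie close together around a median of 4, whereas those of Krt8+-like, AT1-like and alveolar macrophage-like cells start high, since most cells hold 0 or 1.

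In AT1-like cells, the thin cells of gas exchange, the chains differed between the libraries by more than in any other named epithelial class with values. The chains summed to 1227 CPM in 446 WT cells and 226 in 402 KO cells, a log2 ratio of -2.44 (-2.63 to -2.26), and *Cd74* was at 1248 and 627 CPM (-0.99, -1.13 to -0.85). Lower past 2-fold in KO were 4 of 6 members with enough UMIs, the 3 chains and *H2-DMa*, where 5.29% of genes were lower and 4.96% higher. RNA of immune cells moved with this: the 13 immune genes summed to 1518 CPM in WT (13 of 13 detected) and 98.2 in KO (12 of 13), and B cell markers to 153 and 17.6 CPM. Markers of conventional dendritic 1 cells went the other way, at 812 CPM in WT (7 of 7 detected) and 1434 in KO (2 of 7). That list was also at 447 and 408.5 CPM in AT2-like cells, so it does not measure dendritic RNA alone. Among the 170 WT and 333 KO AT1-like cells with no UMI of the immune genes, *Cd74* was at 689 and 608 CPM, and *H2-Aa* at 225 and 71.8. The ratio of the chains was then -1.68 and that of *Cd74* -0.18. With a resolution of 0.4 the ratios were -1.50 and -0.14, and with the pathway genes in the clustering -1.39 and -0.12. The chains thus stayed lower in KO in each of these, whereas most of the difference in *Cd74* was not seen in them.

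Depth differed within the AT1-like class too. Cluster 9, with a median of 705 UMIs in WT, held 397 of the 446 WT cells, and cluster 14, with a median of 4714, held 222 of the 402 KO cells. In cluster 14, *Cd74* was at 582 CPM in 49 WT cells and 426 in KO, and *H2-Aa* at 194 and 44.8. In cluster 9, *Cd74* was at 1660 CPM in WT and 1681 in 180 KO cells, and *H2-Aa* at 670 and 347. *H2-Aa* was lower in KO in both clusters, whereas *Cd74* was not lower in cluster 9. The part of immune RNA, depth and cell choice in these values was not tested. Over mesenchymal-like cells, *Cd74* was 7.38 times higher in WT and 9.17 times in KO AT1-like cells, the chains 5.85 and 4.25 times.

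In airway cells, ciliated-like cells lay near the Krt8+-like level in WT and club-like cells lower. Ciliated-like cells held *Cd74* at 753 CPM in 152 WT and 837 in 1212 KO cells (log2 ratio 0.15, 0.04 to 0.27), and the chains at 562 and 468 (-0.26, -0.40 to -0.12). Club-like cells, the secretory cells of the airway, held *Cd74* at 279 and 164 CPM in 55 and 368 cells and the chains at 405 and 109 (-1.90), and *Ciita* had 0 UMIs in both (upper limits of 31.2 and 2.25 CPM). Of 4 members with enough UMIs, 3 were lower past 2-fold in KO club-like cells, where 9.22% of genes were lower, with the immune genes at 498 CPM in WT and 76.4 in KO.

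General capillary-like endothelial cells held the chains at 813 CPM in 4440 WT cells and 499 in 276 KO cells (log2 ratio -0.71), with *Cd74* at 612 and 366 CPM (-0.74, -0.93 to -0.56). Aerocyte-like capillary cells, the *Car4*- and *Ednrb*-marked type, held less, 431 and 191 CPM of the chains, and venous-like cells 443 and 186. Pooled capillary-like cells had a ratio of -0.77 (-0.92 to -0.62) for the chains, which was -0.25 when 1 in 6 of the KO cells was clustered with all WT cells and -0.53 in cells with no immune UMI. Immune genes summed to 591 CPM in WT and 228 in KO general capillary-like cells, and their part was not tested. Among the 7, *Ciita* alone passed 2-fold in general capillary-like cells (25.4 and 12.6 CPM), where 2.85% of genes were lower in KO. *Cd74* was 3.62 times its mesenchymal level in WT and 5.34 times in KO, so for *Cd74* capillary-like cells stood closer to the background than AT2-like cells did.

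In mesenchymal-like cells themselves the chains were at 210 CPM in 1810 WT cells and 53.1 in 2410 KO cells (log2 ratio -1.98, -2.11 to -1.85). Lower past 2-fold were 6 of the 7, where 6.02% of genes were, and the immune genes were at 303 and 41.7 CPM. Unnamed mesenchymal clusters led by *Gpx3* (1618 WT cells) and *Saa3* (455) were not in this pool, and folds over mesenchymal-like cells are against the pool alone. In WT, 7 and 5 of their 7 members were at least 2-fold above it, where 5.46% and 1.6% of genes were. In KO, 4 and 0 of 6 were (2.1% and 1.53% of genes). The pooled class was taken to lack the pathway, so its levels are read as background, which was higher in the WT library. A similar picture held in classes that carry few class II molecules: T-like cells held the chains at 1825 CPM in WT and 443 in KO, with B cell markers at 794 and 92.5 CPM, and neutrophil-like cells at 1640 and 102.2, with B cell markers at 375 and 0 (upper limit 47.1). In T-like cells 7 of 7 members were lower past 2-fold (8.16% of genes) and in neutrophil-like cells 5 of 7 (2.94% of genes). Within the T-like class, cluster 1 held *Cd74* at 285 CPM in WT and 114 in KO, whereas WT cluster 17, with 16.5% called doublets, held it at 2797.

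In dendritic-like cells, the levels of the 27 KO cells were close to those of the 538 WT cells, and *H2-Aa*, *H2-Eb1* and *Cd74* were higher by less than 2-fold. The makeup of the class differed, with 215 conventional dendritic 1-like, 90 mature and 233 unsplit cells in WT and 14, 6 and 7 in KO. *H2-Aa* was at 6150 CPM in WT and 6808 in KO, *H2-Ab1* at 7137 and 7337, *H2-Eb1* at 6148 and 7124, and *Cd74* at 13040 and 15500. The log2 ratios were 0.15 (0.06 to 0.23), 0.04 (-0.04 to 0.12), 0.21 (0.13 to 0.29) and 0.25 (0.19 to 0.30), and none of the 7 passed 2-fold, where 2.31% of genes were higher and 2.6% lower in KO. The 3 chains together had a ratio of 0.13 (0.08 to 0.18), which was 0.23 with 30 principal components, 0.21 with a resolution of 0.4 and 0.20 with the pathway genes in the clustering. The 7 genes summed to 34050 CPM in WT dendritic-like cells and 38420 in KO. *Epcam*, the sort antigen's gene, was at 103 and 107 CPM in dendritic-like cells, near the 150 and 152 CPM of AT2-like cells, whereas in macrophage-like cells it was at 23.9 and 12.9.

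Groups of WT dendritic-like cells differed in level and in the mix of genes. The 215 conventional dendritic 1-like cells, of the *Xcr1*- and *Clec9a*-marked kind that cross-presents antigen, held the chains at 19490 CPM, the 90 mature dendritic-like cells, marked by *Ccr7* and *Fscn1*, at 11940, and 66 plasmacytoid dendritic-like cells, known as interferon producers and not among the 538, at 2927. The mature cells held *H2-DMa* at 177 CPM (140 to 221) against 885 (835 to 937) in conventional dendritic 1-like cells, so H2-DM made up 2.08% of its sum with the chains in the former and 6.75% in the latter. In mature cells *March1*, encoding a ubiquitin ligase that removes class II molecules from the surface, was at 27.2 CPM and the costimulatory gene *Cd80* at 297, against 284 and 48.3 in conventional dendritic 1-like cells. Their *Ciita* was at 213 and 341 CPM. Of the WT cells, 233 were dendritic-like but could not be given to a subset, and they held the chains at 21940 CPM.

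In B-like cells, 5 of the 7 genes were higher in KO beyond counting error, each by less than 2-fold. *H2-Aa* was at 2219 CPM in 2220 WT cells and 2693 in 62 KO cells, *H2-Ab1* at 1721 and 2467, *H2-Eb1* at 1574 and 2449 (log2 ratio 0.64, 0.49 to 0.78), and *Cd74* at 5774 and 7659 (0.41, 0.32 to 0.49), and the chains together had a ratio of 0.46 (0.38 to 0.55). *H2-DMb1* (100 and 93.9 CPM) and *Ciita* (184 and 157) had intervals of the ratio that included 0. None of the 7 passed 2-fold, where 2.0% of genes were higher and 4.71% lower in KO, and the median of the 7 was 0.41 beside -0.16 over all genes. In 60 KO cells thinned to 1000 UMIs, 100% had *Cd74*.

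The macrophage classes did not move together. Pooled, they held the chains at 6698 CPM in 3945 WT and 4663 in 149 KO cells, a log2 ratio of -0.52 (-0.57 to -0.47) that was -0.90 with 30 principal components, -0.99 with 1 in 6 of the KO cells and -0.82 with the pathway genes in the clustering, and 0 of the 7 passed 2-fold (1.34% of genes higher, 4.05% lower). Interstitial macrophage-like cells were close in both libraries, with *H2-Aa* at 5670 CPM in WT and 6255 in KO, *H2-Eb1* at 5437 and 6366 and *Cd74* at 12960 and 16650 (log2 ratio 0.36, 0.30 to 0.42), and none of the 7 passed 2-fold (1.26% of genes higher, 2.64% lower). Spp1 macrophage-like cells had 3 of 7 members lower past 2-fold in KO, *H2-Aa* (1673 and 806 CPM), *H2-DMa* (298 and 109) and *Cd74* (4058 and 1956), where 2.13% of genes were lower. These KO values rest on 27 and 22 cells.

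Alveolar macrophage-like cells, the resident scavengers of the airspace, held the classical chains at 1636 CPM in 2354 WT cells and 235 in 100 KO cells. *H2-Aa* was at 585 CPM in WT and 99.5 in KO (log2 ratio -2.56, -3.07 to -2.08), *H2-Ab1* at 601 and 66.3, *H2-Eb1* at 450 and 69.1 and *Cd74* at 1519 and 340 (-2.16, -2.43 to -1.90). Those 4 of the 7 were lower past 2-fold in KO, where 4.76% of genes were. *H2-DMa* was not: it was at 205 CPM in WT and 216 in KO (0.07, -0.27 to 0.40), and *H2-DMb1* at 121 and 74.6 (-0.69, -1.30 to -0.14). H2-DM accordingly made up 16.6% (15.9 to 17.2) of its sum with the chains in WT and 55.3% (47.9 to 62.5) in KO.

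Marker lists of B cells, T cells and interstitial macrophages were lower in KO too, and those of dendritic cells by less. In alveolar macrophage-like cells, the B cell markers summed to 100.6 CPM in WT (7 of 7 detected) and to 0 in KO (0 of 7, upper limit 10.2 CPM), the T cell markers to 79.9 and 0, and the interstitial macrophage markers to 910 and 426. The conventional dendritic 1 markers summed to 447 CPM in WT and 373 in KO, and the conventional dendritic 2 markers to 365 and 243. The conventional dendritic 1 list was at like levels in AT2-like cells (447 and 408.5 CPM), so it does not measure dendritic RNA alone. WT cells were mostly of cluster 2 (1201 of 2354 cells, a median of 664 UMIs, *Cd74* at 3001 CPM), of which KO had 11. In cluster 9, of deep cells (medians of 6988 and 8446 UMIs), *H2-Aa* was at 477 CPM in 677 WT cells against 65.5 in 39 KO cells, and *H2-DMa* at 216 and 240, so the pattern was also present there. In cluster 13, which held 50 of the 100 KO cells at a median of 626.5 UMIs, *H2-Aa* was at 493.5 CPM in WT and 115 in KO, but *Cd74* at 1371 and 1067, so there *Cd74* was closer between the libraries. *H2-DMa* of cluster 13 was at 139 and 28.8 CPM, with too few KO UMIs to give a direction. At a resolution of 0.4, where the class grew to 4197 WT and 260 KO cells, the ratio of the chains was -0.10. Over 13 alternatives that ratio ranged from -5.02 to -0.10. The part of other cells' RNA was not tested.

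Nonclassical monocyte-like cells, which patrol the vessel wall, had a like split between genes. The chains were at 2571 CPM in 963 WT cells and 777 in 50 KO cells (log2 ratio -1.73, -1.98 to -1.49), whereas *H2-DMa* was at 204 and 304 CPM (0.57, 0.15 to 0.97) and *Cd74* at 2579 and 1391 (-0.89, -1.08 to -0.71). Lower past 2-fold were 3 of the 7, all chains, where 4.45% of genes were. H2-DM made up 10.96% and 36.7% of its sum with the chains. With 30 principal components the class had 558 WT and 21 KO cells and the ratio of the chains turned to 0.39, so its direction depended on which cells were counted in.

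**Figure D4:**
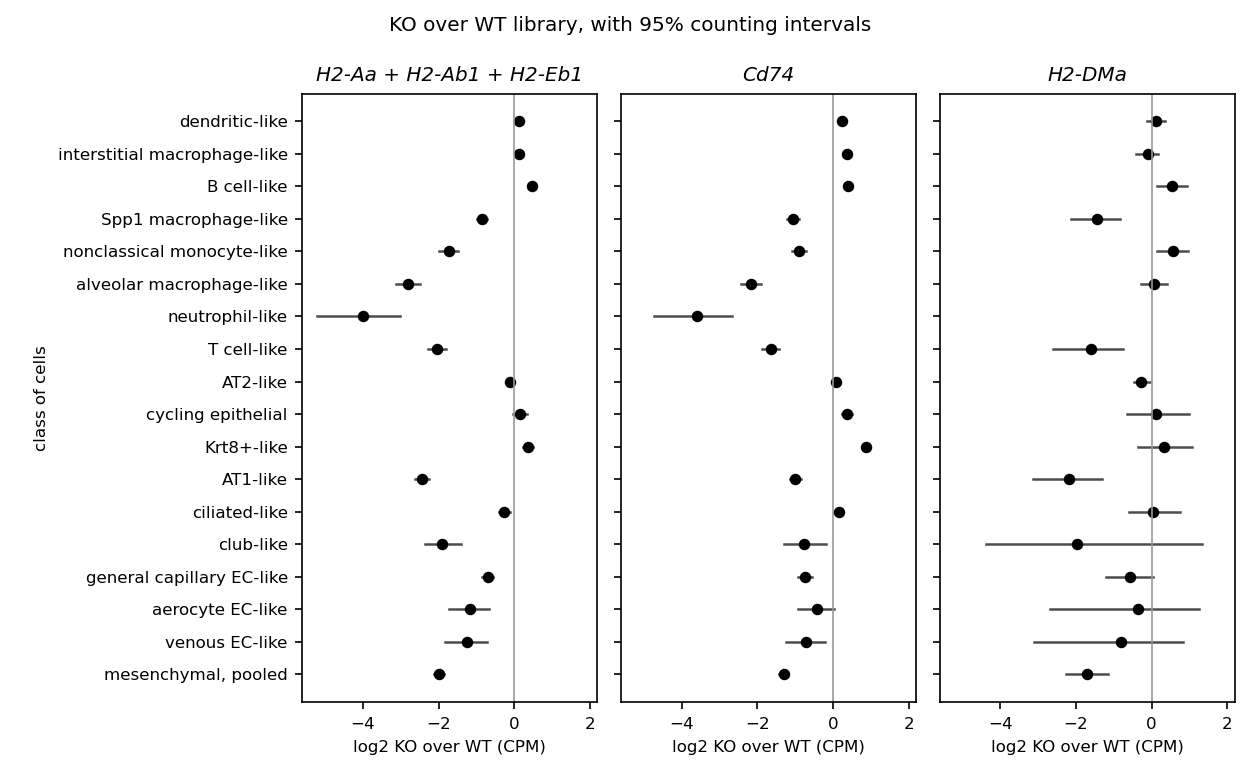
Log2 ratio, KO over WT, of the summed chains *H2-Aa*, *H2-Ab1* and *H2-Eb1* (left), of *Cd74* (middle) and of *H2-DMa* (right) in 18 classes, with exact 95% intervals for counting error. Dendritic-like, interstitial macrophage-like and AT2-like cells sit near 0, AT1-like and alveolar macrophage-like cells at -2.44 and -2.80 for the chains, and *H2-DMa* of neutrophil-like cells is left out because KO had 0 UMIs.

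The mix of the 7 genes set AT2-like, cycling epithelial-like and ciliated-like cells apart from dendritic-like and interstitial macrophage-like cells in both libraries. In AT2-like cells *H2-Aa* made up 70.1% of the UMIs of *H2-Aa* and *H2-Eb1* in WT (68.3 to 71.8) and 70.1% in KO (69.6 to 70.5), against 50.01% and 48.9% in dendritic-like cells, 51.1% and 49.6% in interstitial macrophage-like cells and 54.5% and 56.9% in mesenchymal-like cells. Ciliated-like cells, at 64.1% and 64.6%, and cycling epithelial-like cells, at 69.8% and 68.1%, lay on the side of AT2-like cells. Other epithelial classes did not all do so: Krt8+-like cells were at 50.8% (45.2 to 56.4) and 59.0%, AT1-like cells at 57.1% and 65.8% and club-like cells at 56.7% (37.4 to 74.5) and 52.7%, beside 58.5% and 52.4% in B-like cells. Plasmacytoid dendritic-like cells, at 68.3% in WT, were the immune class with a share as high. *H2-Aa* and *H2-Eb1* belong to different pairs, the I-A alpha chain and the I-E beta chain, and the gene of the I-E alpha chain, *H2-Ea*, had no row under that symbol.

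*Cd74* outweighed the chains in AT2-like and Krt8+-like cells of both libraries. It made up 61.4% of the UMIs of *Cd74* and the 3 chains in WT AT2-like cells and 64.5% in KO, 61.6% (59.0 to 64.2) and 69.6% (68.8 to 70.3) in Krt8+-like cells and 50.4% and 73.6% (71.2 to 75.9) in AT1-like cells. In WT club-like cells it made up 40.7% (29.95 to 52.2) and in KO 60.2%. In dendritic-like cells it made up 40.2% and 42.2%, in general capillary-like cells 42.9% and 42.3% and in B-like cells 51.2% and 50.2%. In mesenchymal-like cells, the background, it made up 44.6% and 56.3%. AT2-like, Krt8+-like, cycling epithelial-like and ciliated-like cells thus lay above the background in both libraries and dendritic-like cells below it.

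**Figure D5:**
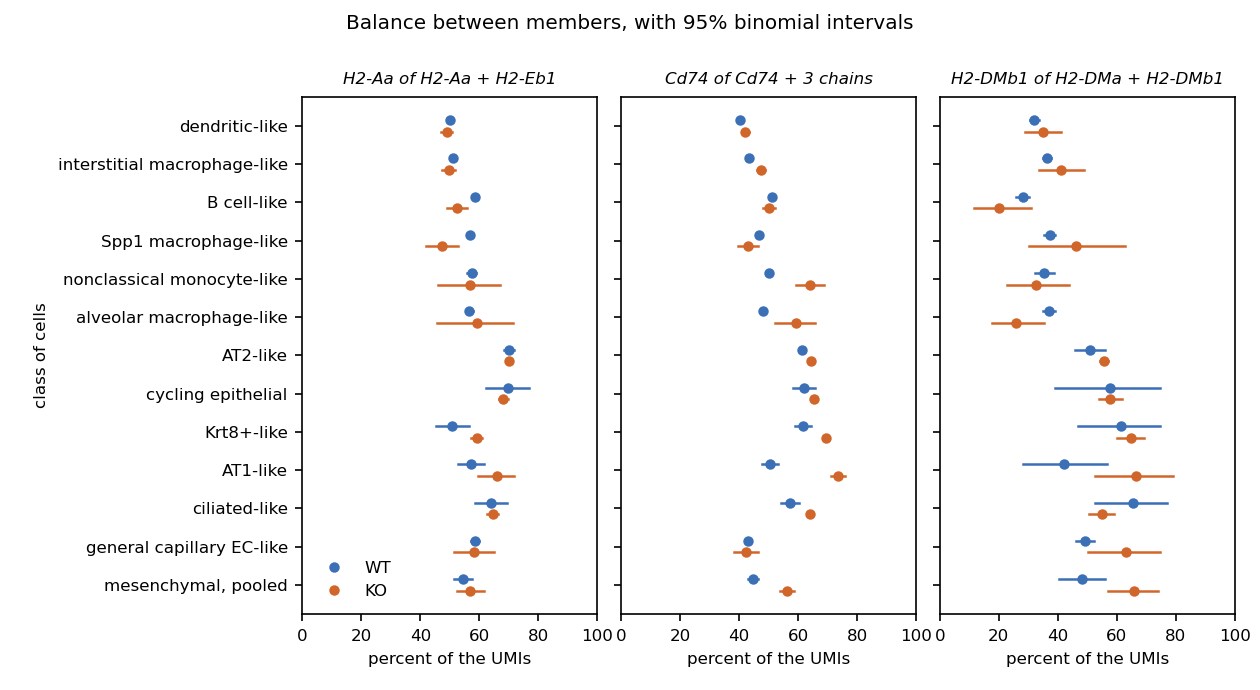
Mix of class II transcripts in 13 classes of the WT and KO libraries, as the percent of *H2-Aa* among *H2-Aa* and *H2-Eb1* (left), of *Cd74* among *Cd74* and the 3 chains (middle) and of *H2-DMb1* among *H2-DMa* and *H2-DMb1* (right), with exact 95% binomial intervals. AT2-like cells sit at 70.1% on the left in both libraries, and dendritic-like cells at 50.01% and 48.9%.

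H2-DM, like the chains, was higher in WT dendritic-like, interstitial macrophage-like and B-like cells than in WT AT2-like cells, but with its own mix. *H2-DMa* was at 825 CPM in WT dendritic-like cells, 745 in interstitial macrophage-like, 256 in B-like and 79.7 in AT2-like cells, and *H2-DMb1* at 389, 428, 100 and 82.9. AT2-like cells thus held both subunits at like levels, with *H2-DMb1* at 51.0% of the pair in WT (46.0 to 56.0) and 55.7% in KO (54.4 to 56.9), whereas dendritic-like cells had 32.1% and 34.8% and WT B-like cells 28.1% (KO, 15 of 75 UMIs). B-like cells held more of *H2-DMb2*, the neighbouring copy of the beta subunit, which made up 73.8% of the UMIs of both copies in WT and 81.5% in KO, against 2.84% and 2.48% in AT2-like and 13.5% in WT conventional dendritic 1-like cells. The copies are near-identical genes, so how their reads were split is uncertain.

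*Ciita* was measured at low levels, and its order of classes followed that of the chains only in part. It was at 364 CPM in WT dendritic-like cells (343 to 386). Interstitial macrophage-like and B-like cells, both at 184, did not differ beyond counting error. AT2-like cells of WT held 22.7 CPM (17.1 to 29.4). General capillary-like cells of WT (25.4 CPM) and Spp1 macrophage-like cells of WT (29.4) were near this. Their chains were not, at 813 and 4645 CPM against 1695 in AT2-like cells. In KO, general capillary-like cells were lower, at 12.6 CPM. In WT, *Ciita* rested on 5 UMIs in AT1-like cells (8.62 CPM) and on 2 in Krt8+-like cells (1.93 CPM). In KO it was at 281 (209 to 371), 146, 157, 26.6 (24.99 to 28.22), 5.46 and 4.69 CPM, and dendritic-like cells had no clear difference between the libraries (log2 ratio -0.37, -0.81 to 0.04). The mesenchymal-like cells held 2.78 CPM in WT and 0.809 in KO, so AT2-like cells were 8.16 and 32.8 times higher. Krt8+-like cells of WT were not above this background. At 1000 UMIs a cell, 2.46% of WT and 2.60% of KO AT2-like cells had a UMI, against 0.235% and 0.168% of mesenchymal-like cells and 30.4% and 40.7% of dendritic-like cells.

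Other genes of the pathway were read from a list of 28, of which 23 had a row. In AT2-like cells 15 had enough UMIs, and 1 was lower past 2-fold in KO: *Ctss*, the cathepsin that trims the invariant chain in dendritic cells and an immune list gene as well, at 35.2 CPM in WT and 6.37 in KO. The other endosomal proteases were at 276 and 235 CPM for *Ctsb*, 155 and 105 for *Ctsd*, 79.3 and 59.1 for *Lgmn* and 64.7 and 62.1 for *Ctsl*. The RFX subunits on which CIITA docks were expressed, with *Rfx5* at 7.69 and 8.68 CPM, *Rfxap* at 11.7 and 12.6 and *Rfxank* at 6.47 and 5.89. *Cd80*, *Cd86* and the genes of H2-DO, the inhibitor of H2-DM, were close to 0 in AT2-like cells: *Cd80* was at 0.405 and 0.226 CPM, *Cd86* at 0.809 and 0.101, *H2-Ob* at 1.62 and 0.0755, and *H2-Oa* had 0 UMIs in WT (upper limit 1.49 CPM) and was at 0.0252 CPM in KO. *Cd83*, a surface gene of mature dendritic cells, was at 15.8 and 8.65 CPM in AT2-like cells, above the 5.19 and 0.736 of mesenchymal-like cells. In dendritic-like cells *Cd86* was at 501 and 366 CPM and *Cd83* at 656 and 580, and in B-like cells *H2-Ob* was at 316 and 294 and *H2-Oa* at 129 and 207. AT2-like cells thus held the chains, *Cd74* and H2-DM with almost no transcript of *Cd80*, *Cd86* or H2-DO.

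Over the other classes, that list had 1 gene higher and 2 lower past 2-fold in KO of 21 in dendritic-like cells (2.31% and 2.6% of all genes). It had 0 and 5 of 23 in B-like cells (2.0% and 4.71% of all genes), and 0 and 1 of 22 in alveolar macrophage-like cells (1.06% and 4.76%). In the last, the median over the 19 with UMIs in both libraries was 0.02 beside -2.16 for the 7 members, with *Ctss* at 2256 CPM in WT and 2960 in KO *Ctsd* at 4323 and 4005, *Ctsb* at 927 and 890, *Ctsl* at 288 and 368 and *Lgmn* at 241 and 318. Of these endosomal proteases of alveolar macrophage-like cells, *Ctsd* was lower in KO beyond counting error, with a log2 ratio of -0.11. In Krt8+-like cells the 11 class I antigen presentation genes had a median of 0.02 and 8 genes of the interferon gamma axis, which switches *Ciita* on in many cells, a median of -0.03, with none past 2-fold.

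The genes whose levels across classes were most like the mean of the 3 chains and *Cd74* were *Fgd2* (Pearson's r of 0.84 on log2(CPM + 10)), *Plbd1* (0.81), *Cd83* (0.80), *Pkib* (0.79), *Slamf7* (0.78), *Lat2* (0.77), *Cd86* (0.76), *Bcl2a1b* (0.75), *Tmsb4x* (0.75) and *H2-DMb2* (0.75), over 61 points, each a class in 1 library, which share libraries and depth. Among the members, *H2-DMa* had 0.93, *H2-DMb1* 0.90 and *Ciita* 0.90. *Fgd2* was at 146 CPM in WT dendritic-like cells and 141 in KO, at 19.0 and 15.7 in AT2-like cells and at 0.483 and 0.294 in mesenchymal-like cells, so it shared with the members the middle place of AT2-like cells. The RFX genes had correlations near 0, from -0.10 for *Rfx5* to -0.07 for *Rfxap*, and so did not follow the class II levels. With log2(CPM + 1), 8 of the 10 stayed among the first 10.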

How the data were processed

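For each library the deposited matrix holds UMI counts (3′ kit, 10x v3.1) with no normalization by the authors. The paper's methods and the submitters' processing notes name Cell Ranger 3.1.0 with STAR on GRCm38, whereas the headers of the deposited matrices name Cell Ranger 5.0.0. The filters kept barcodes with more than 200 genes, fewer than 5000 genes and a mitochondrial share under 20%. Doublets, called by Scrublet in scanpy 1.11.5 at 8.75% of WT and 2.70% of KO cells, were kept.

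Both libraries were merged and clustered with Seurat 5.3.0 in R 4.3.3 (2000 variable genes without 58 genes of the class II, class I and interferon lists and the members, 10 principal components, 20 neighbours, resolution 0.8) in 3 rounds: lineages, classes and dendritic subsets. Clusters were named by marker lists. The limits for a name were set after the clusters were seen. They included at most 25% doublets and at least 3 markers 1 log2 unit higher and seen in 10% of cells. No other marker list could hold more of the 10 leading genes. In the round of classes, clusters outside these limits with at most 25% doublets are called by a leading gene. All other cells, 9.18% of WT and 3.04% of KO, were in no class, among them those of clusters with more doublets. Class values were given for at least 20 cells in a library.

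UMIs were summed by class and library and given as CPM with exact Poisson intervals, ratios with the exact conditional 95% interval of 2 counts, and shares with Clopper-Pearson intervals, in Python 3.11.15 with numpy 2.4.6 and scipy 1.17.1. All intervals cover counting error only. A gene with at least 20 UMIs in a class was past 2-fold where its log2 ratio was at least 1 in size and the interval excluded 0. The share of all genes past that limit is given beside the first count of members. No p-value was computed, since there was 1 library per genotype and cells are not replicates. The ratios and intervals were tested on simulated counts. Named are the 7 members, the genes of the lists with the highest level, the largest ratio or a count of 0, and the 10 genes most correlated with the members; *Rfx5*, *Rfxap*, *Rfxank*, *March1*, *Cd80* and *H2-Ob* were also named for their roles after their values were seen. The members and the lists were chosen with earlier results of these data known. TMM factors came from edgeR 4.0.16. No column of sample values was left unmapped.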

Additional observations from a re-analysis of the deposited data

Results flagged for a closer look

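In the pairs below, related classes had log2 ratios, KO over WT, of opposite sign, and the differences between classes were not tested, since there was 1 library per genotype. *Cd74* had 0.88 in Krt8+-like cells and -0.99 in AT1-like cells, and the 3 summed chains 0.37 and -2.44. For the chains of Krt8+-like cells the sign was not stable: they were at 712 CPM in WT and 549.9 in KO in cluster 11, and at a mean of 0.554 and 0.512 UMIs per cell thinned to 1000 UMIs. In AT1-like cells without immune UMIs, the ratio of *Cd74* was -0.18. *Cd74* had 0.36 in interstitial macrophage-like cells and -2.16 in alveolar macrophage-like cells, and the chains 0.13 and -2.80. The ratio of the chains in alveolar macrophage-like cells ranged from -5.02 to -0.10 over 13 alternatives. It was -0.10 at a resolution of 0.4 and -3.37 in cells of at least 2000 UMIs. Markers of B and T cells, at 100.6 and 79.9 CPM in WT alveolar macrophage-like cells, were at 0 in KO, and their part in the difference was not tested. Markers of conventional dendritic 1 cells differed less there, at 447 CPM in WT and 373 in KO. That list was at like levels in AT2-like cells (447 and 408.5 CPM), so it does not measure dendritic RNA alone.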

How the results depend on the processing

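No paired analysis was possible because each genotype had 1 library. Ratios below are log2, KO over WT, of the 3 summed chains unless another gene is named. In AT2-like cells the ratio was -0.11, with -0.40 where the limits of 200 and 5000 were read as UMIs, -0.041 with 1 in 6 of the KO cells, -0.023 in cells with 0 immune UMIs and, in the other direction, 0.0765 with TMM factors. *H2-Aa* in AT2-like cells changed direction too, to 0.0172 with 1 in 6 of the KO cells, 0.12 with TMM and 0.0225 with 0 immune UMIs, *H2-DMa* to 0.18 with 0 immune UMIs, and *Cd74* to -0.15 with the limits read as UMIs. The cause was not tested. In dendritic-like cells the ratio was 0.23 with 30 principal components, 0.21 at a resolution of 0.4 and 0.20 with the list genes among the variable genes. In B-like cells it was 0.59 with 30 components, 0.55 at a resolution of 1.2 and 0.63 without mitochondrial and ribosomal genes. In macrophage-like cells it was -0.90 with 30 components, -0.99 with 1 in 6 of the KO cells and -0.82 with the list genes, and in capillary-like cells -0.25 with 1 in 6 and -0.53 with 0 immune UMIs. In AT1-like cells it was -2.65 without doublets, -1.50 and -2.07 at resolutions of 0.4 and 1.2, -1.96 with 1 in 6, -1.39 with the list genes, -2.19 after thinning, -1.68 with 0 immune UMIs and -2.03 in cells of at least 2000 UMIs. Outside AT2-like cells, these kept their direction under all alternatives that gave a value. In nonclassical monocyte-like cells the ratio turned to 0.39 with 30 components. In alveolar macrophage-like cells it ranged from -5.02 to -0.10 over 13 alternatives, of which 7 lay outside the interval of the main value. Removing shared barcodes, and the cells of at least 2000 UMIs, were chosen after seeing the data, as was each alternative for alveolar macrophage-like and nonclassical monocyte-like cells and for *Cd74* in AT1-like and Krt8+-like cells. Where a class had under 20 cells in a library under an alternative, no value was given. Of alveolar macrophage-like cells, 1405 WT and 59 KO cells were too shallow for thinning to 1000 UMIs, so shares there rest on 949 and 41 cells.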

Other observations

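Among cells the markers did not name, 2 groups of epithelial clusters carried class II genes near the level of AT2-like cells in WT and above it in KO. Both were near AT2 cells by marker score. The *Ndnf*-led cells scored best for AT2, with 9 of 10 markers. The *Lcn2*-led cells scored best for activated AT2, with *Sftpc*, *Sftpa1* and *Cxcl15* among their leading genes. They stayed unnamed because another marker list held more of their leading genes. The *Ndnf*-led epithelial cells held *Cd74* at 2529 CPM in 72 WT cells and 3581 in 795 KO cells, with the 3 chains at 1495 and 1984 (log2 ratio 0.41, 0.28 to 0.54). The *Lcn2*-led epithelial cells, led by an acute-phase gene, held *Cd74* at 2920 and 3547 CPM in 63 and 557 cells. In KO, both lay above the 2852 CPM of AT2-like cells beyond counting error, whereas in WT the *Ndnf*-led cells had lower chains than AT2-like cells (1495 against 1695 CPM). The *Scgb3a1*-led airway cells held little, *Cd74* at 177 and 293 CPM, which was still 0.73 on the log2 scale higher in KO (0.51 to 0.95). The *Ccl17*-led immune cells held the chains at 8819 and 8733 CPM.

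Class I genes of AT2-like cells, which present peptides from inside the cell and were read from a list of 11, had a median log2 ratio of -0.36 with none past 2-fold, with *H2-K1* at 774 CPM in WT and 618 in KO and *B2m*, the class I light chain, at 443 and 310. The interferon gamma list had a median of -0.26 over 10 genes in AT2-like cells, with 1 lower past 2-fold in KO. Over all genes tested the median was -0.14, and 4.47% were lower past 2-fold. *Irf1* was at 32.8 CPM in WT and 32.1 in KO, and *Ifng* had 0 UMIs in both.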
